A study of Macaca fascicularis with 10 samples.

Results

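The ZNF genes are a large family of genes named for zinc fingers, small protein folds held by a zinc ion. All rows of the deposited count table whose name begins with ZNF and a digit were taken, 206 of 7229 genes. RNA came from the dorsal raphe nucleus, a serotonin cell group of the brainstem, in 10 daughters. They are female cynomolgus macaques (Macaca fascicularis) of labelled mothers and fathers, with no treatment and no age given in the labels, and all form 1 group. Each gene has a count for the maternal and a count for the paternal allele in each daughter, and the measurement is the paternal share, that is, how many percent of these reads stand in the paternal column. Shares are given for values with 10 or more allelic reads.

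Most proteins of this family bind DNA with a row of fingers of the C2H2 type, in which a pair of cysteines and a pair of histidines hold the zinc. Many carry a KRAB domain, which recruits the corepressor TRIM28 and so silences chromatin, often at transposable elements. The family has grown by local duplication in primates, and its largest clusters lie on chromosome 19 in humans. Other members of the name group have no KRAB domain and serve as developmental regulators or act on RNA and ribosomes. Near copies can share reads, and the sources used here do not say how such reads were assigned. The allelic assignment of members of the recent clusters is therefore uncertain.

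In brief, none of the 46 ZNF genes tested leaned to the same parental column across daughters at the adjusted threshold. The same test called 0 of 2981 genes. It thus did not call the imprinted genes GRB10 and DLK1, whose side differed between daughters. Alleles were called unequal in 5.58% of member measurements, and in 8.57% of all measurements, X-linked genes included. The calls among members fell in 22 of them. Of the 22, 15 were called in 1 daughter only, and the like count over all genes was not made. Members had fewer reads than other genes, and among measurements with 50 or more reads 16.5% of the members' were called, where 14.1% of all were. ZNF597, a gene reported as imprinted, was read from 1 allele in each of the 4 daughters that had reads. ZNF134, ZNF423 and ZNF665 had strongly unequal alleles in daughter 6. The X-linked ZNF41 (daughters 3, 4 and 10) and ZNF81 (daughters 4 and 5) lay on the side of the other X-linked genes, and in daughter 6 ZNF81 did while ZNF41 and ZNF449 did not. Between ZNF genes and other autosomal genes no difference was detected in how far alleles departed from equality beyond counting error.

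The members had few reads. They took 25670 allelic reads in all, 0.468% ± 0.0335 (SD, n = 10) of each daughter's reads, though they make up 2.85% of the rows. Allelic reads are counted only at positions where a daughter's alleles differ, and the number of such positions per gene is not given. In tissue RNA, few such positions, fewer cells that use a gene and less RNA of it per cell cannot be told apart. Of the 206 members, 162 reached 10 reads in 1 or more daughters and 44 in none. Of the 162, 39 did so in 1 daughter only, 77 in 2 to 4 daughters and 46 in 5 or more. None did so in all 10. This gave 556 measurements of a member in a daughter, with a median of 26 reads against 55 for the other genes. In daughter 1, the shallowest with 30090 allelic reads in total, only 2 members could be measured, ZNF528 and ZNF462. In the others the number ran from 40 in daughter 7 to 86 in daughter 5, and the deepest daughter, 6, had 999471 allelic reads.

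RefSeq's gene table for T2T-MFA8v1.1, another build than that of the counts, placed 167 members by symbol. It put 86 on chromosome 19, 12 on chromosome 20, 5 on X and the others on 13 further autosomes, and 39 were not placed. The labelled tissue was checked by markers of serotonin cells. TPH2, the enzyme that starts serotonin synthesis in neurons, had 9561 allelic reads in all, of which 5409 were in daughter 6. DDC had 1924, SLC18A2 743 and SLC6A4 423. None of these reached 10 reads in daughters 1 and 2, and FEV had no row here and was not analysed.

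The columns cannot be taken as the same parent in every daughter without reserve. DLK1 and MEST are imprinted genes known to be expressed from the paternal allele. DLK1 had 96.8% to 100% of its reads in the paternal column in daughters 3, 4, 5 and 10, but 1.74% in daughter 6, where MEST had 3.09%. GRB10, an imprinted growth factor receptor adaptor, had 2.97% to 9.16% in daughters 2, 6 and 9, against 96% to 98.2% in daughters 3, 4, 5 and 10. In daughters 1, 7 and 8 none of DLK1, MEST and GRB10 reached 10 reads, so the columns of these daughters were not checked. Sides below are given as the columns are labelled. The main results that rest on the side are also given without daughter 6, without daughters 2, 6 and 9, or for daughters 3, 4, 5 and 10 alone.

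ZNF597, a zinc finger gene on chromosome 20, is reported in humans as imprinted and expressed from the maternal copy. It had reads in 4 daughters, 24 in all, and each of these daughters had them in 1 column only. All 9 reads of daughter 2, all 10 of daughter 6 and both reads of daughter 9 were in the paternal column, and all 3 of daughter 10 were in the maternal column. Only daughter 6 reached the read minimum, at 100% (95% Wilson interval 72.2 to 100, exact binomial test, adjusted p = 0.0264), and the beta-binomial error described below gave an adjusted p of 0.275. ZNF597 lay opposite to GRB10 in 4 of 4 daughters. Among the 154 members with 20 or more reads over all daughters it was the only 1 with reads from a single allele in each daughter, and the whole table had 3 such genes of 5886. This count was made after the values of ZNF597 were seen. The other members listed as reported imprinted were not of this kind. ZNF264 had shares of 40.7%, 65.2% and 33.3% of 54, 23 and 18 reads (daughters 5, 7 and 8), and ZNF215 did not reach 10 reads in any daughter.

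The parental columns were then compared over all daughters. Of the 46 members that reached 10 reads in at least 5 daughters, 0 differed between the columns with edgeR's quasi-likelihood test at an adjusted p of 0.05, where 0 of 2981 genes (0%) did. At an unadjusted p under 0.05 there were 3 members, and 93 of all genes, or 3.12%. DESeq2 gave 2 such members, where 56 of all genes were such, and limma 5, where 108 were. Both also called 0 members. Without daughter 6 the count was 0 of 32 members, where 0 of 2557 genes were called. In daughters 3, 4, 5 and 10 alone it was 0 of 51 members, where 0.0699% of 2861 genes were called, namely the imprinted GRB10 and DLK1. The members' median log2 ratio of paternal to maternal reads was -0.02, against -0.01 over all genes tested. Their mean shares ran from 37.0% to 57.6%, with 42 of 46 between 40% and 60%.

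The member with the smallest p was ZNF584, on chromosome 19. Its share ran from 31.0% over a median of 39.6% to 48.8%, so it lay below 50% in 8 of 8 daughters, and in 6 of 6 when daughters 2, 6 and 9 were left out. The mean was 39.2% ± 5.98 (SD, n = 8) and the log2 ratio -0.60 ± 0.17 (SE, edgeR unadjusted p = 0.00409, adjusted p = 1). In daughters 3, 4, 5 and 10 alone the log2 ratio of ZNF584 was -0.57, with an unadjusted p of 0.0610 by edgeR. Its adjusted p ranged from 0.897 to 1 over the alternatives run. None of its single daughters was called. The SD of ZNF584 between daughters was below the 8.85 points that counting its reads would give.

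ZNF534, listed here among the silencers of repeats, had shares from 34.1% to 53.8% with a median of 38.1%, below 50% in 5 of 6 daughters. ZNF658 ran from 34.9% to 54.2% with a median of 38.5%, likewise below in 5 of 6. Both had an adjusted p of 1 by edgeR, with unadjusted values of 0.0145 for ZNF534 and 0.0190 for ZNF658. ZNF611 had a mean of 41.1% ± 12.1 (SD, n = 7), and ZNF746, whose protein PARIS is a substrate of the ubiquitin ligase parkin, 37.5% ± 17.9 (SD, n = 5). Those means rest on wide spreads, from 17.1% to 54.5% in ZNF611 and from 9.09% to 57.1% in ZNF746. On the paternal side ZNF704 lay above 50% in 6 of 6 daughters, and in 4 of 4 without daughters 2, 6 and 9, at 55.9% ± 4.16 (SD, n = 6). ZNF277 did so in 7 of 8, at 54.4% ± 3.56 (SD, n = 8), and ZNF827, which recruits a chromatin remodelling complex, at 57.6% ± 6.18 (SD, n = 5) in 4 of 5 with the last at 50%. ZNF44 had 55.3% ± 14.1 (SD, n = 9) and ZNF862 54.2% ± 11.1 (SD, n = 8). None of these passed, with an adjusted p of 1 by edgeR for each.

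Without daughter 6 the log2 ratios of paternal to maternal reads kept their sign in the 8 of these 10 members that could be tested, all but ZNF746 and ZNF827. In daughters 3, 4, 5 and 10 alone the log2 ratio was -0.82 in ZNF534, -0.43 in ZNF658 and -0.24 in ZNF611, against -0.67, -0.56 and -0.53 over all daughters. On the paternal side it was 0.39 in ZNF704 and 0.16 in ZNF277, against 0.33 and 0.27. It was 0.93 in ZNF44 and 0.05 in ZNF862, against 0.38 and 0.25 over all daughters, so these values depend on which daughters are counted.

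Only 9 members could be measured in 8 or 9 daughters, and they show how widely members differ in their spread between animals. ZNF277 was the most even, from 48.3% to 58.8%, with an SD of 3.56 points, against 6.60 points that counting would give. ZNF584 came next, then ZNF862 from 42.6% to 73.1%, and ZNF528 from 23.8% to 60.8%, whose lowest value is daughter 1 with 21 reads. ZNF333, ZNF335, ZNF44 and ZNF236 had SDs of 13.3, 13.7, 14.1 and 14.2 points, against 7.46, 10.0, 9.53 and 9.89 from counting. ZNF335, a regulator tied to microcephaly, ran from 18.2% of 11 reads in daughter 7 to 62.7% of 51 in daughter 10. ZNF429 had the widest spread of the 9, from 28.6% to 71.9% with an SD of 15.4 points, against 8.42 from counting. Daughters 5 and 10 were its lowest and daughter 6 its highest.

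**Figure D1:**
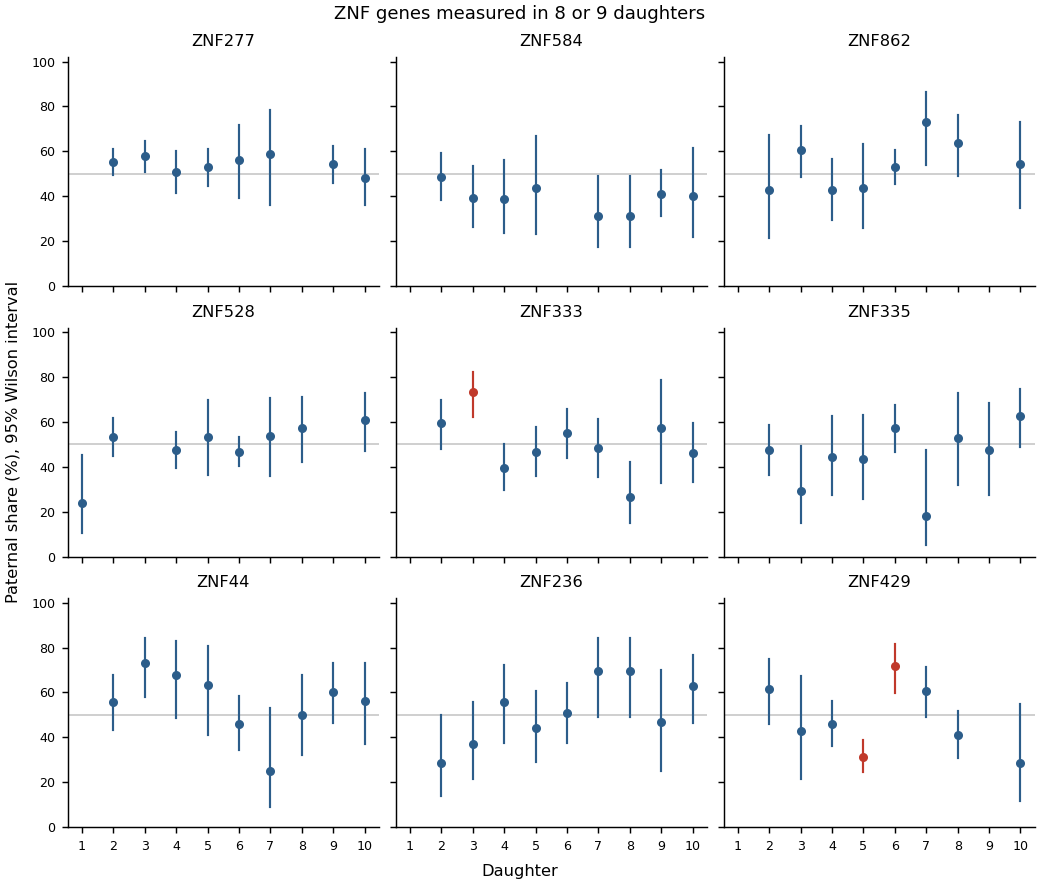
Paternal share (percent, y axis) in each daughter (x axis, daughters 1 to 10) of the 9 ZNF genes measured in 8 or 9 daughters; points are shares, bars 95% Wilson intervals, the grey line 50%, and red marks a measurement called unequal in that daughter at an adjusted p of 0.05. ZNF584 stayed below 50% in 8 of 8 daughters, while ZNF429 ran from 28.6% to 71.9%.

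Over the 46 tested members, the variation of the share between daughters was set beside that of all tested genes. The chi-square statistic of the paternal reads over daughters, divided by its degrees of freedom, is near 1 where daughters differ by counting alone. Its median was 1.78 in the members, with quartiles of 0.870 and 2.88, and 2.01 over all 2981 genes. It was above 2 in 18 members (39.1%) and in 50.3% of all genes, whose median read number was 65 against 30 in the members. The part of this gap in reads was not tested. The members' highest value was 14.8, in ZNF665, where counting would give an SD of 6.21 points and the SD between daughters was 23.8.

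Of the 10 members with the most reads, ZNF483, ZNF706, ZNF277, ZNF259, ZNF528 and ZNF462 had no single daughter called. ZNF333 was called in 1 daughter, at 73.3%. In 2 daughters each, ZNF611 was called at 17.1% and 38.7%, and ZNF429 at 31.2% and 71.9%. ZNF483, which carries SCAN and KRAB domains, had the most, 1812 in all, with a share of 51.2% ± 3.92 (SD, n = 6) and 49.1% of 603 reads in daughter 4. ZNF706 had 49.4% ± 4.39 (SD, n = 5). ZNF259, also named ZPR1, a partner of the survival motor neuron protein, had 51.3% ± 5.63 (SD, n = 5), its lowest being 43.3% of 434 reads in daughter 4. ZNF638, which takes part in silencing of foreign DNA, had shares of 51.6%, 38.1%, 48.7% and 42.1% of 91, 215, 378 and 76 reads (daughters 2, 4, 8 and 9). Of ZNF483, ZNF706, ZNF259 and ZNF638, only ZNF638 in daughter 4 was called unequal in a single daughter (exact binomial test, adjusted p = 0.0102), and not with the beta-binomial error. ZNF462, linked to a neurodevelopmental syndrome, ran from 30% to 61.9% with a median of 53.8%, none of it called.

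Next, each measurement was tested against equal alleles by an exact binomial test, two-sided, adjusted over all 27887 measurements of the table. Such a test compares the columns of 1 library and covers counting error alone: the reads carry no molecular identifiers. It called 31 of 556 member measurements, 5.58%, where 8.57% of all measurements were called. All measurements include those of X-linked genes, and the percent without X-linked genes was not counted. Of the 31, 12 lay on the paternal and 19 on the maternal side, in 22 members. Without daughters 2, 6 and 9 the calls numbered 6 paternal and 14 maternal, in 17 members. Of the 15 members called in 1 daughter only, 2 were measured in no other daughter. A beta-binomial error, which allows each daughter the extra variation of her autosomal genes, called 3 member measurements, where 1.64% of all were called. Of member measurements with under 50 reads, 2.11% (10 to 19 reads) and 2.58% (20 to 49 reads) were called, against 2.498% and 5.10% of other genes. With 50 to 99 reads it was 15.2% of 92 member measurements against 9.45%. With 100 or more but under 200 reads it was 20.8% of 24 against 10.6%, and with 200 or more 11.8% of 17 against 18.9%. Among measurements with 50 or more reads, 22 of 133 member measurements were called, 16.5%, where 14.1% of all were.

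**Figure D2:**
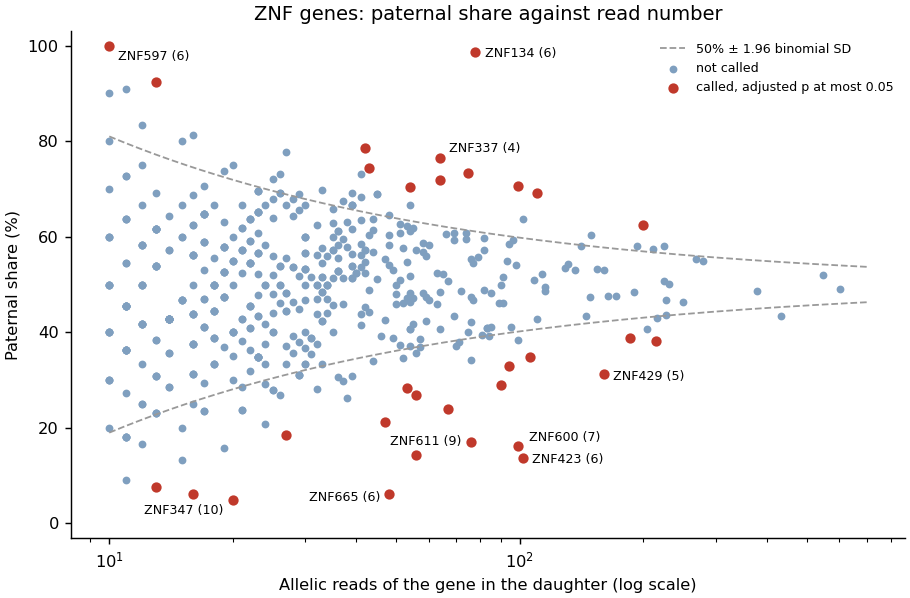
Paternal share (percent, y axis) against allelic reads (x axis, log scale) of the 556 measurements of ZNF genes with 10 or more reads; dashed lines are the 95% binomial range around 50% (normal approximation), red points the 31 called at an adjusted p of 0.05, and the number after a name is the daughter. ZNF134 at 98.7% and ZNF665 at 6.25%, both in daughter 6, lie far outside the lines.

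The 3 measurements called under both error models were all in daughter 6. ZNF134, a gene of chromosome 19, had 77 of 78 reads in the paternal column there, 98.7% (95% Wilson interval 93.1 to 99.8, exact binomial test, adjusted p = 7.84e-20, beta-binomial 5.19e-06). In daughters 7, 8 and 9 it lay near equality, at 54.5%, 50% and 53.7% of 33, 12 and 41 reads. ZNF423, a developmental regulator that works with EBF and SMAD proteins, had 14 of its reads in the paternal and 88 in the maternal column in daughter 6, or 13.7% (interval 8.36 to 21.7, beta-binomial adjusted p = 0.0233). Elsewhere it had 60.8%, 58.3%, 43.5% and 56.5% of 74, 48, 69 and 23 reads (daughters 2, 3, 5 and 10). ZNF665 had 6.25% of 48 reads in daughter 6 (interval 2.15 to 16.8, beta-binomial adjusted p = 0.00442). Its other shares were 38.0%, 63.7%, 21.3% and 55.7% (daughters 2, 3, 4 and 10), so that daughters lay on both sides, and the value of daughter 4, from 47 reads, was called by the binomial test only.

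By the binomial test 7 members were called in more than 1 daughter. How many of all genes were called in more than 1 daughter, or on both sides, was not counted. ZNF337, on chromosome 10, was called in 4 of 4 daughters, with shares of 33.0%, 76.6%, 14.3% and 6.25% of 94, 64, 56 and 16 reads (daughters 3, 4, 6 and 7). Daughter 4 thus stood on the paternal side and daughters 3, 6 and 7 on the maternal side. ZNF600, on chromosome 19, had 92.3% of 13 reads (daughter 6) and 16.2% of 99 (daughter 7), both called, against 63.6% of 22 and 59.8% of 82 in daughters 5 and 8. ZNF791 was called on opposite sides in daughters 4 and 5, which have the same labelled father, with 62.5% of 200 and 28.9% of 90 reads, and had 48.0% and 54.1% of 50 and 98 reads in daughters 3 and 10. ZNF429 was called at 31.2% of 160 in daughter 5 and 71.9% of 64 in daughter 6. ZNF337, ZNF600, ZNF791 and ZNF429 are the 4 members called on both sides. Without daughter 6, 2 of them remained so, ZNF337 and ZNF791, since the second side of ZNF600 and ZNF429 is that of daughter 6.

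The other 3 were called on 1 side each. ZNF558, on chromosome 19, had 70.7% and 70.4% of 99 and 54 reads in daughters 2 and 9, and its 5 other daughters ran from 30% to 53.8%. ZNF611 had 17.1% and 38.7% of 76 and 186 reads in daughters 9 and 3, with 37.1% to 54.5% elsewhere. ZNF665 is given above. Under the beta-binomial error none of the calls of ZNF337, ZNF600, ZNF791, ZNF429, ZNF558 and ZNF611 held, with the smallest adjusted p at 0.0737, in ZNF611.

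**Figure D3:**
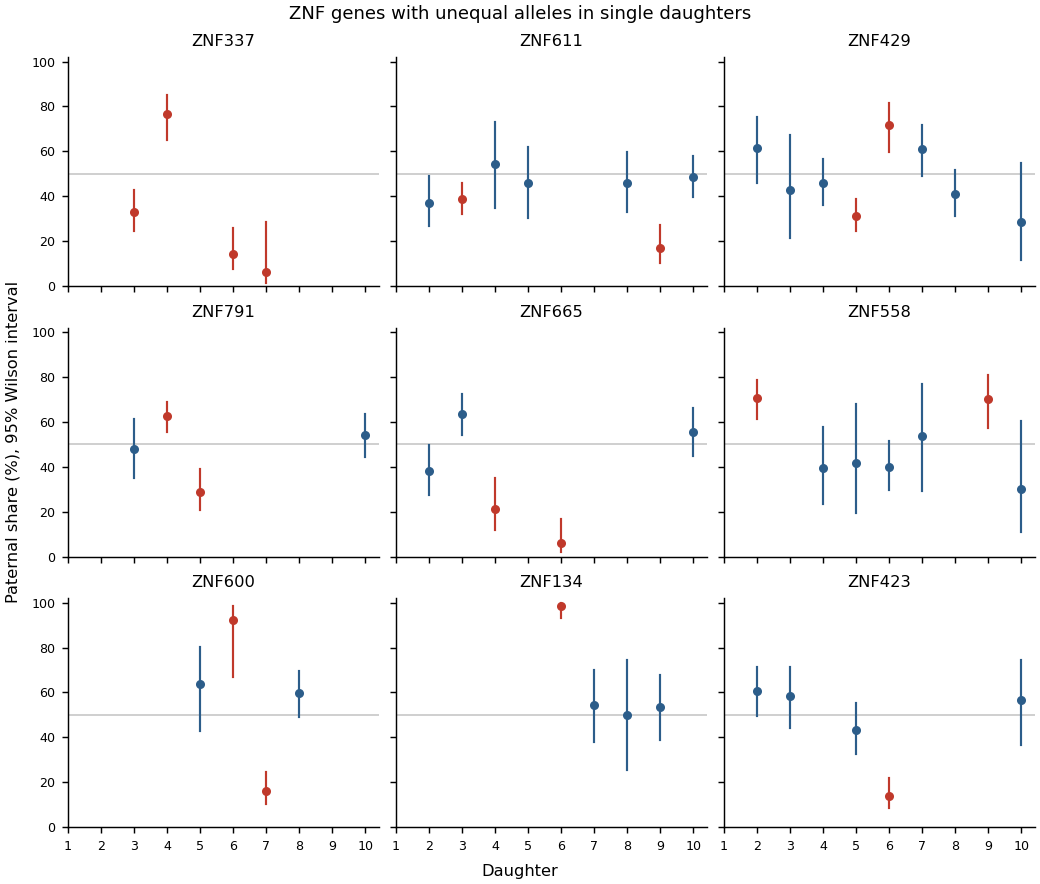
Paternal share (percent, y axis) by daughter (x axis) of the 7 ZNF genes called unequal in more than 1 daughter and of ZNF134 and ZNF423; points are shares, bars 95% Wilson intervals, the grey line 50%, and red marks a call at an adjusted p of 0.05. ZNF134 is at 98.7% in daughter 6, and its 3 other values run from 50% to 54.5%.

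Near-complete reading from 1 allele was rare. With 90% or more of 20 or more reads in 1 column, 3 of 366 member measurements qualified, where 1.6% of all measurements did. These were ZNF134 and ZNF665 in daughter 6 and ZNF347 in daughter 10, with 5% of 20 reads (interval 0.888 to 23.6, beta-binomial adjusted p = 0.0698). ZNF347 lay between 40.9% and 57.1% in its 4 other daughters. Without daughter 6 only ZNF347 was left. Another 5 member measurements with 20 or more reads lay between 80% and 90% on 1 side, and the like count over all measurements was not made.

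Members and other genes were compared by a measure that allows for the read number. It is the root mean square deviation of the share from 50% after the part due to counting is taken off. Autosomal members had 9.88 ± 5.79 percentage points and other autosomal genes 9.16 ± 0.786 (SD, n = 10 daughters each). The difference was 0.724 ± 1.80 points (SE), with the members higher in 6 daughters and lower in 4 (two-sided exact permutation test, swapping the values within daughters, p = 0.701). Members ranged from 1.23 points in daughter 8 to 21.0 in daughter 1, which rests on ZNF528 and ZNF462 alone, and the deepest daughter, 6, had 14.2. Without daughter 1 the difference was -0.551, so its direction turns on that library, and without daughter 6 it was 0.316. Titles of the daughters begin with 10203 or 10480, a prefix whose meaning the labels do not give. The difference was 2.32 points among the 6 daughters with 10203 and -1.67 among the 4 with 10480, neither past the test. Members of chromosome 19 had 9.93 points over 213 measurements, those of other autosomes 9.90 over 211 and those not placed 10.1 over 124. These values by place were not tested against each other.

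**Figure D4:**
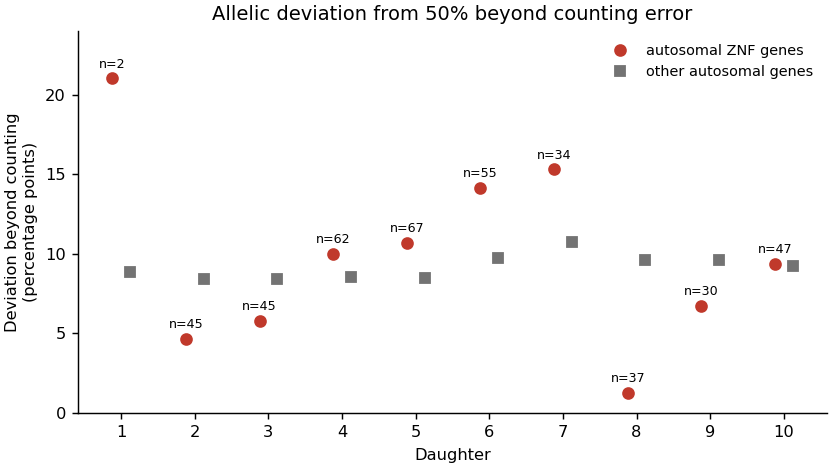
Root mean square deviation of the paternal share from 50% beyond counting error (percentage points, y axis) by daughter (x axis) for autosomal ZNF genes (circles, n is the number measured) and other autosomal genes (squares). The other genes sit between 8.38 and 10.8 points in all 10 daughters, and the ZNF genes scatter from 1.23 to 21.0 around them.

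In females 1 X chromosome is silenced in each cell, so the alleles of X-linked genes show how the silenced copy was divided in the tissue. Of the 5 X-linked members, ZNF41, ZNF81 and ZNF449 reached 10 reads, and ZNF182 and ZNF280C did not. ZNF41, a KRAB gene once linked to intellectual disability, had shares of 33.3%, 73.7%, 53.3% and 31.8% of 18, 19, 30 and 22 reads (daughters 3, 4, 6 and 10). ZNF81, likewise once linked to intellectual disability, had 74.4%, 35.5% and 37.9% of 43, 31 and 29 reads (daughters 4, 5 and 6), of which daughter 4 was called (exact binomial test, adjusted p = 0.0261) but not with the beta-binomial error (adjusted p = 0.806). The other X-linked genes pooled had 28.8%, 72.8%, 28.4%, 44.6% and 32.5% in daughters 3, 4, 5, 6 and 10. ZNF41 and ZNF81 were thus on the same side of 50% as the other X-linked genes in daughters 3, 4, 5 and 10, and in daughter 6 ZNF41 and ZNF449, at 61.5% of 13, were not. The Wilson intervals of both in daughter 6 include 50%, as do those of ZNF41 in daughters 3 and 10 and of ZNF81 in daughters 5 and 6.

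**Figure D5:**
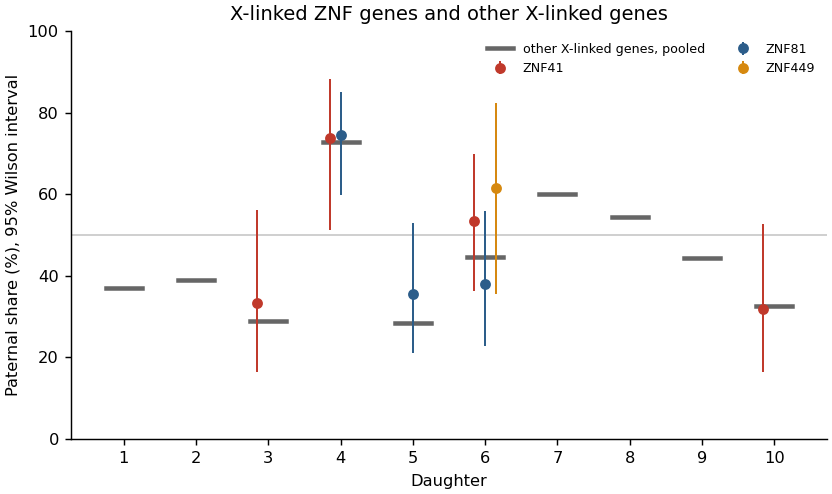
Paternal share (percent, y axis) by daughter (x axis) of the X-linked ZNF41, ZNF81 and ZNF449 (points with 95% Wilson intervals) and of all other X-linked genes pooled (short dark lines); the long grey line is 50%. In daughter 4 ZNF41 at 73.7% and ZNF81 at 74.4% lie beside the other genes at 72.8%.

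By the measure beyond counting, X-linked members had 11.2 ± 10.1 points and autosomal members 9.98 ± 3.003 in the 5 daughters with an X-linked member measured (SD, n = 5 each). The difference of 1.24 points was within the spread between daughters (two-sided exact permutation test, p = 0.875, the smallest it allows being 0.0625). X-linked values rest on 1 to 3 genes in a daughter, and in daughter 6 the counting part was larger than the deviation. The direction of this difference turned without daughter 3, at -0.037, and without daughter 4, at -1.55. Without daughter 6 the difference was 6.36 points, with X-linked members higher in all 4 daughters left (same permutation test, p = 0.125, the smallest it then allows).

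The gene lists held few measurable members, and their called counts stand beside 8.57% of all measurements. Of 15 genes linked to neurodevelopmental or psychiatric disorders, 7 were in the table and 2 were tested, ZNF462 and ZNF335. Their 26 measurements had a median of 48.7% with 1 called (3.85%), ZNF81 in daughter 4. Of 17 corepressor and developmental regulators without KRAB, 6 were in the table. Their 19 measurements had a median of 56.2%, with 1 called (5.26%), ZNF423 in daughter 6. ZNF532, which partners the chromatin reader ZMYND8, had 50.6% ± 6.45 (SD, n = 5), and ZNF521, a regulator of neural progenitors, 53.1% and 44.4% in daughters 4 and 6.

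Among 10 genes of RNA, ribosome and spindle function, 3 were in the table, with 10 measurements, a median of 48.5% and 1 called (10%), ZNF638 in daughter 4. ZNF598, a ubiquitin ligase that acts on stalled ribosomes, had 57.1% of 21 reads in daughter 7. Of 9 guardians of imprints and silencers of repeats, ZNF534 and ZNF202 were in the table. Their 8 measurements had a median of 38.1% and none was called. ZNF202, a SCAN and KRAB repressor, had 52.6% and 20% of 19 and 15 reads in daughters 3 and 5.

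Since many ZNF genes stand side by side, adjacent members were compared in the same daughter. The gene table gave 46 pairs of members with no other named gene between them, of which 19 could be measured together, 29 times in all. The shares lay on the same side of 50% in 9 of these, on opposite sides in 18, and 2 had a share of 50%. Both neighbours were beyond 60% or below 40% on the same side 1 time, for ZNF615 at 75% of 12 reads and ZNF614 at 63.2% of 38 in daughter 10. In daughter 4 these neighbours were opposed, at 69.7% of 33 and 38.9% of 18. Over all pairs, neighbours were so opposed 4 times. The 39 members that were not placed are missing from these pairs, and some may lie between neighbours. ZNF600 stands next to ZNF528 in this gene table, a pair chosen after its values were seen. In daughter 7 ZNF600 was at 16.2% and ZNF528 at 53.6% of 28 reads, and in daughter 6 ZNF600 was at 92.3% and ZNF528 at 46.7% of 227.

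Title prefix was tested as an interaction with the parental column, with edgeR over 2981 genes. It called 0 of 46 members, where 0.0335% of all genes were called. At an unadjusted p under 0.05 there were 2 members, and 106 of all 2981 genes. DESeq2 also called 0 members, with 2 at an unadjusted p under 0.05, where 70 of all genes were. These 2 by edgeR were ZNF334 and ZNF236. ZNF334 had 61.8% to 78.6% in daughters 3, 5 and 6 of prefix 10203 and 31.2% to 42.9% in daughters 8, 9 and 10 of prefix 10480 (edgeR adjusted p = 1). These values did not overlap, nor did the 4 values left without daughters 6 and 9. ZNF334 was picked here for its small p among the members, and how many of all genes separate in this way was not counted. ZNF236 had 28.6% to 55.6% in 5 daughters of prefix 10203 and 46.7% to 69.6% in the 4 of 10480, which overlap (edgeR adjusted p = 1). In single daughters, 7.18% of member measurements of prefix 10203 were called, where 9.36% of all measurements were, and 3.09% of 10480, where 7.47% were. Prefix 10480's libraries had 273992 to 498639 allelic reads against 30090 to 999471 for 10203.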

How the data were processed

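The 10 libraries were stranded, paired-end and depleted of ribosomal RNA, per the labels' protocols. Alignment used Novoalign, a tool named in the submitters' processing notes. The authors deposited whole-number counts per gene and parental allele, on build macFas5 per the file headers, with redundant gene rows summed. Phasing, read filters and counting are not given in the sources used here. Columns were matched to daughters by title. The daughters are separate animals, but daughters 4 and 5 have the same labelled father. The tests over daughters did not allow for shared parents.

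The parental columns were compared over all genes that reached 10 reads in at least 5 daughters by edgeR 4.0.16 (glmQLFit, robust prior, daughter as block, library size summed over alleles) in R 4.3.3, with Benjamini-Hochberg adjustment at 0.05. DESeq2 1.42.0 and limma 3.58.1 (0.5 added to counts) were alternatives. Tested on simulated data with 2981 genes, the parental comparison found 80% of the 100 genes given a 2-fold change and 99% of the 100 given a 4-fold change. It made 5 false calls. In the deposited data GRB10 and DLK1, whose side differed between daughters, were not called over all daughters. Both were called in daughters 3, 4, 5 and 10 alone. How many genes are found where the side differs between daughters was not tested. Recovery at the members' read numbers, a median of 30 against 65 over all tested genes, was not tested separately. Python 3.11.15 and SciPy 1.17.1 gave binomial tests, Wilson intervals and exact permutation tests over all swaps. These swaps numbered 1024 with 10 daughters, and fewer where fewer daughters entered. Depth was 30090 to 999471 allelic reads. Intervals cover counting error only.

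The members and lists were chosen with earlier results of these data known. Members were named by smallest p, single-allele reading, number of daughters called, total reads, X linkage, spread between daughters, list membership and neighbour pairs. Counts by protein domain were not made here.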

Additional observations from a re-analysis of the deposited data

Results flagged for a closer look

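ZNF134 in daughter 6 stood apart from its other daughters, at 98.7% paternal of 78 reads against 50% to 54.5% in 3 others. ZNF528 in daughter 1 was at 23.8% of 21 reads (95% Wilson interval 10.6 to 45.1), against 46.7% to 60.8% in 7 others. Pooled over members, daughter 1 had 42.0% of 138 reads in the paternal column (95% Wilson interval 34.1 to 50.4), against 48.0% to 52.0% in the 9 others. Of these 138 reads, 41 came from ZNF528 and ZNF462, at 26.8%, so this flag is not separate from that of ZNF528. Each flagged value was far from the nearest other one relative to the range of its group. Of 37 groups checked in this way, chance flags about 1 in 20.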

How the results depend on the processing

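The count of 0 members past the parental test held in all alternatives run, namely DESeq2, limma, other read filters, TMM factors, subsets of daughters, each daughter left out, and the fit with no replicate block, and the 0 for title prefix held with DESeq2. Without the block the members' smallest adjusted p was 0.9998 by edgeR. Of the 10 members named for a small p, 5 on each side, 9 kept their direction in every alternative in which they were tested, and the log2 ratio of ZNF862 turned to -0.022 in prefix 10203. With the beta-binomial error 28 of the 31 single-daughter calls were lost. The percent of member measurements called in single daughters was 16.5 at 50 or more reads, 0.540 with the beta-binomial error and 3.09 in prefix 10480. Leaving out each daughter gave 4.76 to 6.25. Single-allele measurements numbered 10 at 10 or more reads, 1 at 50 or more reads, and 1 to 3 when each daughter was left out. The difference between members and other genes in deviation ran from -0.551 to 1.74 when daughters were left out and was -1.67 in prefix 10480. For X-linked against autosomal members it ran from -1.55 to 6.36, at -0.037 without daughter 3. No adjacent pair lay together at 20 or more reads. Chosen after seeing the data were the runs within 1 title prefix for calls in single daughters, deviation and X linkage, single-allele counts without each daughter, unplaced genes, and sides without daughters 2, 6 and 9. Leaving out transfer RNA and LOC rows changed nothing, since none was placed on an autosome. Depth limits the members, with a median of 26 reads per measurement against 55 for the other genes.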
